A study of Homo sapiens with 54 samples.

Results

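In all, 10 messages were followed here that lay far above all other conditions in Argonaute immunoprecipitates (IP) of H4 cells transfected with miR-320. They were CPSF6, OSR2, DYNLRB1, SELENOW, TBCA, NRN1, APEX2, ARPC1A, SLC48A1 and PPIL3, 10 genes of 18417 with a probe set of their own and of 11050 that passed a filter on low values. All 10 passed that filter, and all 10 also passed it when the miR-320 arrays were left out of the means. The genes were picked from their IP values, so the IP difference between miR-320 and the other transfections is described without a test. The total lysate values played no part in the choice and were tested.

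The series asked which messages Argonaute carries after each of 9 small RNAs is introduced into H4, an established human line that the labels describe as having a glioneuronal phenotype. Each culture received miR-103, miR-107, miR-16, miR-195, miR-320, miR-15b* (titled miR-15b), an altered form of miR-107 (miR-107-mut1, titled Mut M1, or miR-107-mut2, titled Mut M2) or a negative control RNA from Ambion, and was harvested after 48 h. The control cultures were thus transfected too, and untransfected cells were not analysed here. RNA from the IP, made with the monoclonal anti-Argonaute antibody 2A8, and RNA from the total lysate were hybridised to Affymetrix Human Gene 1.0 ST arrays, with 3 biological replicates per condition in each fraction, 54 arrays in all. The altered molecules' sequences and the letter of the miR-320 family member were not given in the sources used here. The findings concern a single cell line after transfection with a mimic.

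Argonaute proteins hold a small RNA and use its seed, the bases near its 5′ end, to pair with messages, whose translation and stability are then lowered. A message that pairs with an introduced microRNA can therefore become more abundant in an Argonaute IP, and may or may not become scarcer in the cell.

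The transfected microRNAs are shown because the choice of genes contrasts the first seed with the others. Mature sequences are from RefSeq on GRCh38.p14, written 5′ to 3′ with the seed (bases 2 to 8) in capitals. The miR-320 family is represented by miR-320b, which in that annotation lies in the non-coding gene MIR320B1 on the plus strand at chr1:116671787-116671808. Whether the transfected molecule was this family member is not known.
miR-320b: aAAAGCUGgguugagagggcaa
miR-103a-3p: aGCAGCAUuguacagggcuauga
miR-107: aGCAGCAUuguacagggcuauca
miR-16-5p: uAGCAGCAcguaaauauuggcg
miR-195-5p: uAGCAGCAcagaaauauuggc
miR-15b-3p (miR-15b*): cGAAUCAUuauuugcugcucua
The seed of miR-320b, AAAGCUG, was shared with none of the other 5 sequences. miR-103a-3p and miR-107 shared GCAGCAU, and miR-16-5p and miR-195-5p shared AGCAGCA. Sites that pair with these seeds in the 10 messages were not analysed here.

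Values are log2 intensities as deposited, read as log2 because they were made with RMA, whose output is on that scale. The log base was not stated, which limits every fold change given. IP arrays had means of 3.61 to 3.65 and lysate arrays 7.11 to 7.17, which points to a separate normalization of each fraction, and levels are not compared between fractions. In the lysates VIM and CD44 lay at the 99.0 and 99.5 percentile of all genes' mean signal and ENO2 at 82.2, MAP2 and SNAP25 at 56.4 and 48.9, whereas NES (35.0), GFAP (32.5), NEFL (32.2), NEFM (16.6) and S100B (6.06) were low. The haematopoietic markers PTPRC and CD3E were at 1.84 and 13.3, and of the epithelial markers EPCAM was at 5.73, CDH1 at 14.4 and KRT8 at 84.2. Replicate 1 of the miR-15b* IP and replicate 2 of the miR-103, miR-15b* and miR-16 lysates correlated less with the other arrays of their fraction than the rest. Differences of the 10 genes from the mean of the 8 other transfections in the lysate, and calls of partner genes, are also given without these arrays.

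In the IP, the 3 miR-320 replicates of all 10 genes lay above all 24 arrays of the other transfections, a pattern met by 3.29% of all genes tested (21.8% had a miR-320 mean above the 8 other means). Against the mean of the 8 other transfections the 10 genes were 3.42 to 4.69 higher on the log2 scale (median 3.79, against 0.08 over all genes tested, of which 7.65% were called in either direction), which is 10.7-fold for APEX2 to 25.8-fold for OSR2. Against the negative control alone they were 2.85 (PPIL3) to 3.96 (OSR2) higher, with a median of 3.33 against -0.00 over all genes, of which 2.21% were called in either direction. These comparisons share the miR-320 arrays and the negative control is 1 of the 8. They show how the genes were chosen, and nothing is read from them.

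Nuclear proteins that act on transcription or RNA included OSR2 and CPSF6, whose miR-320 means lay farthest above the highest of the 8 other means (by 3.96 and 3.76). OSR2, a zinc-finger transcription factor of limb, palate and tooth development, measured 10.62, 10.32 and 11.41 in the miR-320 IP. Its other 24 IP values ran from 4.70 to 7.45 with a median of 6.13, the highest coming from a miR-15b* array. The gap between the lowest miR-320 value and the highest other value was 2.87, and the negative control had the highest of the 8 other means (6.82 ± 0.56, SD, n = 3).

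CPSF6, a subunit of the cleavage factor Im complex that directs where messages are cut and polyadenylated, measured 7.15, 7.90 and 7.49 with miR-320. The other 24 arrays lay between 3.06 and 4.04 with a median of 3.51, the narrowest spread of the 10 genes, and the group means differed among themselves by only 0.49. These means lay at the 42.0 to 54.1 percentile of all genes in the IP, and those of PPIL3 at 38.2 to 64.3. The next lowest gene, TBCA, lay at 72.5 to 83.9. Whether such values stand above background was not analysed, which limits the reading of the narrow spread and of the fold changes. For CPSF6 the difference from the mean of the 8 was 4.01, or 16.1-fold. PPIL3, a cyclophilin found in spliceosomes, measured 6.95, 7.40 and 7.16 against 2.88 to 4.55 (median 3.51) elsewhere. It differed 11.7-fold from the mean of the 8, but 7.21-fold from the negative control, which was its highest other group at 4.32 ± 0.31 (n = 3).

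Cytoskeletal genes made up a further group. DYNLRB1, a light chain of the microtubule motor cytoplasmic dynein, measured 9.55, 9.96 and 9.69 with miR-320 and 4.66 to 6.99 (median 6.06) in the other 24 IP arrays. TBCA, a chaperone that takes up beta-tubulin during tubulin folding, measured 8.23, 9.01 and 8.48 against 4.27 to 5.85 (median 5.05). ARPC1A, a subunit of the Arp2/3 complex that nucleates branched actin, measured 9.90, 10.40 and 10.37 against 4.64 to 7.40 (median 6.14).
The gap between the lowest miR-320 array and the highest other array was 2.56 for DYNLRB1, 2.38 for TBCA and 2.50 for ARPC1A. TBCA was the only one of the 10 genes with a second probe set, and it showed the same order: 6.24, 7.28 and 6.51 with miR-320 against 1.97 to 3.45 elsewhere. ARPC1A stood out for its spread among the other transfections, from 5.22 with miR-107 to 7.26 ± 0.22 (n = 3) in the negative control. Its difference was therefore 17.0-fold against the mean of the 8 and 7.80-fold against the control.

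The remaining genes serve at membranes, in redox chemistry and in DNA repair. NRN1, a membrane-anchored protein that promotes neurite outgrowth, was the most variable: 8.65, 10.75 and 10.42 with miR-320 against 3.99 to 7.67 (median 5.78) elsewhere. Its lowest miR-320 array, replicate 1, lay 0.99 above the highest other array, the smallest gap of the 10 genes. SLC48A1, which carries heme out of endosomes and lysosomes, measured 9.56, 10.01 and 9.61 against 3.96 to 7.16 (median 5.72).
SELENOW, a small selenoprotein linked to redox regulation, was the least variable of this group, at 10.03, 10.34 and 9.93 with miR-320 against 5.14 to 6.996 (median 6.49). APEX2, an endonuclease that acts at abasic sites in base excision repair, measured 8.14, 8.88 and 8.84 against 4.25 to 6.14 (median 5.16). Neither gene had a miR-320 value near the others, with gaps of 2.94 for SELENOW and 2.00 for APEX2.

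**Figure D1:**
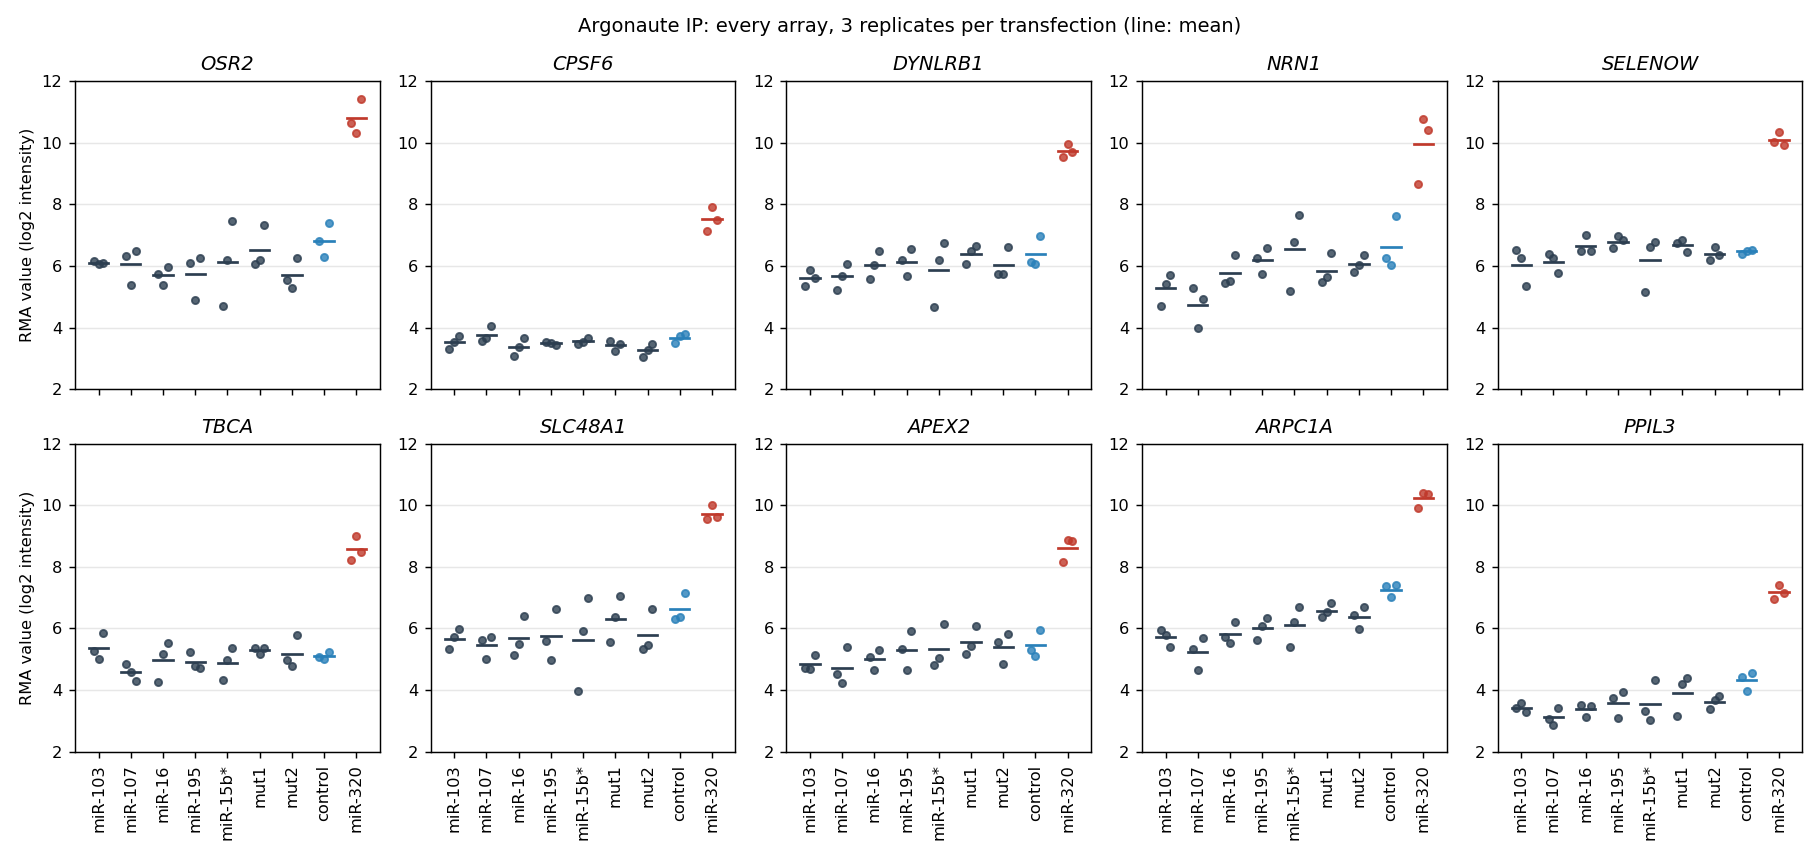
RMA value (log2 intensity) of each gene in every Argonaute IP array, by transfection; each point is 1 array, lines are means of 3 replicates, mut1 and mut2 are the altered miR-107 molecules and control is the negative control. In each panel the 3 miR-320 points lie above the other 24, by the most in CPSF6 (3.10) and by the least in NRN1 (0.99).

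Among the 8 other transfections the IP order was not the same for each gene. The negative control had the highest mean for OSR2, NRN1, ARPC1A, SLC48A1 and PPIL3, miR-107-mut1 for DYNLRB1 and APEX2, miR-195 for SELENOW, miR-103 for TBCA and miR-107 for CPSF6. The lowest mean was that of miR-107 for TBCA, NRN1, APEX2, ARPC1A, SLC48A1 and PPIL3. Between the highest and the lowest of these 8 means the distance was 0.49 (CPSF6) to 2.04 (ARPC1A), and the replicates of the highest and lowest groups overlapped for APEX2. The distance from the miR-320 mean to the highest of the 8 was larger in each case, at 2.85 for PPIL3, the member with the smallest, and 3.96 for OSR2. Without the miR-15b* array that stood apart, that distance moved most for NRN1, from 3.31 to 2.72.
By that distance the 10 genes took ranks 1 to 6 and 8 to 11 of 11050. LINC00174, a non-coding RNA, ranked 7 with 3.14, and CTDNEP1, a phosphatase of the nuclear envelope, followed PPIL3 with 2.73. ATXN7L1 had 2.69. The line between PPIL3 and CTDNEP1 is thus narrow, 2.85 against 2.73.

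Over the 27 IP arrays, the genes that most resembled the mean profile of the 10 were RPS15, a ribosomal protein of the small subunit (r = 0.972), UBAP2 (r = 0.969), LINC03129 (r = 0.969), CTDNEP1 (r = 0.969) and USP14, a deubiquitinase of the proteasome (r = 0.967). Each of the 10 correlated with the mean of its fellows at 0.92 (SELENOW) to 0.98 (DYNLRB1). The 27 points share 9 transfections and 3 replicate numbers, and the 3 miR-320 arrays carry most of the spread, so these coefficients are a description. RPS15 measured 9.94 or more with miR-320 and at most 7.67 elsewhere, and its lysate difference from the mean of the 8 was -0.03 ± 0.10 (SE).

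The lysates showed a different picture. None of the 10 messages was called higher with miR-320 by limma in the fit without array quality weights or a block for replicate number. Over all genes tested, 3.42% were called higher against the mean of the 8 and 1.46% against the control. Of the 10, only OSR2 was higher at an unadjusted p under 0.05, and only against the mean of the 8. Against the mean of the 8 other transfections 2 of the 10 (DYNLRB1 and SELENOW) fell at an adjusted p under 0.05 in limma, where 3.95% of all genes tested were called lower and 7.38% in either direction. Against the negative control 2 of the 10 (DYNLRB1 and SLC48A1) fell, where 1.5% of all genes were called lower and 2.96% in either direction. The medians of the 10 were -0.14 and -0.22 on the log2 scale, against -0.01 and 0.00 over all genes. In a bulk lysate, fewer cells with a message and less of it per cell cannot be told apart, and the p-values measure the spread between replicates labelled as biological.

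DYNLRB1 had the lowest miR-320 lysate values relative to the rest. The arrays read 9.15, 8.88 and 9.02, and the other 24 ran from 9.37 to 10.23 with a median of 9.65, so the groups did not overlap. Such a separation was seen downward for 0.588% of all genes tested and upward for 0.344%. The fall from the mean of the 8 was 0.66 ± 0.10 (SE; adjusted p = 0.00017 in limma), 1.57 times lower, and without the lysate arrays that stood apart it was 0.60 (adjusted p = 8.4e-07). From the negative control, at 9.66, 9.58 and 9.59, the fall was 0.59 ± 0.13 (adjusted p = 0.014). That call was lost without replicate 2 of miR-320 (adjusted p = 0.080), replicate 1 of the control (0.054) or replicate 2 of the control (0.054). In the IP the same gene was 13.2-fold above the mean of the 8.

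SELENOW measured 10.07, 10.22 and 10.31 in the miR-320 lysates. The other 24 ran from 10.22 to 11.26 with a median of 10.62, so 1 of the 3 miR-320 arrays lay among them. It fell from the mean of the 8 by 0.42 ± 0.09 (adjusted p = 0.0071 in limma), 1.34 times lower, by 0.37 without the arrays that stood apart (adjusted p = 0.00012), and the call was lost without miR-320 replicate 1 (adjusted p = 0.088). Against the control replicates, at 10.37, 10.43 and 10.42, the difference of -0.21 (95% interval -0.47 to 0.05) was not called (adjusted p = 0.63), although no miR-320 value reached them. The mean of the 8 held miR-16 and miR-195, with which SELENOW lay 0.57 and 0.39 above the control. Among the other transfections only miR-107-mut1 lay below the control (-0.05).

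SLC48A1 measured 10.08, 9.91 and 9.81 with miR-320 and 10.67, 10.57 and 10.34 in the control lysates, with no overlap. It fell from the control by 0.59 ± 0.15 (adjusted p = 0.034 in limma), 1.51 times lower. The call was lost without any 1 of the 3 miR-320 replicates (adjusted p = 0.051, 0.10 and 0.15) and without control replicate 1 (0.14) or 2 (0.15). Against the mean of the 8 the difference was -0.26 ± 0.11 (adjusted p = 0.19), and -0.21 without the arrays that stood apart (adjusted p = 0.11).

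For the other 7 genes no lysate difference with miR-320 was called in the fit without array quality weights or a block for replicate number. CPSF6 lay at 0.05 against the mean of the 8 (95% interval -0.13 to 0.23) and TBCA at 0.01 (-0.22 to 0.24), and their miR-320 replicates overlapped the control. APEX2 (-0.12, interval -0.40 to 0.16), PPIL3 (-0.13, -0.51 to 0.25) and ARPC1A (-0.15, -0.34 to 0.04) lay a little lower. These 5 intervals did not reach the fall of DYNLRB1 from the mean of the 8, but against the control those of APEX2 (-0.61 to 0.14) and PPIL3 (-0.72 to 0.29) included its fall of 0.59. Without the arrays that stood apart the differences from the mean of the 8 were 0.04 for CPSF6, 0.01 for TBCA, -0.04 for APEX2, -0.22 for PPIL3 and -0.13 for ARPC1A, and none was called.
ARPC1A read 11.08, 11.40 and 11.32 with miR-320 and 11.45, 11.65 and 11.59 in the control, a difference of -0.30 with no overlap (adjusted p = 0.28). With a block for replicate number this difference was called (adjusted p = 0.012 in limma). APEX2 also did not overlap its control, at 9.39, 9.47 and 9.48 against 9.74, 9.64 and 9.67, with a difference of -0.24 (adjusted p = 0.78). The share of all genes tested whose miR-320 replicates lay apart from the control replicates was not counted. Such separations are therefore only described, here and for SELENOW and SLC48A1.

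In the fit without a block for replicate number, NRN1 and OSR2 were the least precisely measured in the lysate. NRN1 read 9.21, 10.72 and 10.30 with miR-320, and its difference of -0.40 from the mean of the 8 (interval -0.91 to 0.11; adjusted p = 0.37) became 0.04 without replicate 1. From the control it differed by -0.59 (interval -1.27 to 0.09; adjusted p = 0.56 in limma), with replicates that overlapped. Without 1 array that difference ran from -0.91 to -0.15. Array quality weights, with which 21.4% of all genes were called, gave -0.68 (adjusted p = 0.029 in limma). The low NRN1 value carried the same replicate number in the IP and in the lysate. In the lysate replicate 1 was the lowest NRN1 array of every transfection, as in the control (10.09, against 10.85 and 11.06). The fit that gave 0.04 left out replicate 1 of miR-320 only. With a block for replicate number the difference of -0.40 had an SE of 0.14 (adjusted p = 0.074 in limma). OSR2 read 9.71, 9.30 and 10.17 against 8.42 to 10.24 (median 9.17) in the other 24. It lay 0.48 ± 0.20 above the mean of the 8 (adjusted p = 0.18 in limma, and 0.049 with the block). With array quality weights, where 28.3% of all genes were called, OSR2 lay 0.56 above that mean (adjusted p = 0.023 in limma). Its difference from the control was -0.04 (interval -0.61 to 0.52). Without the arrays that stood apart the differences of NRN1 and OSR2 from the mean of the 8 stayed at -0.40 and 0.48 and were not called.

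**Figure D2:**
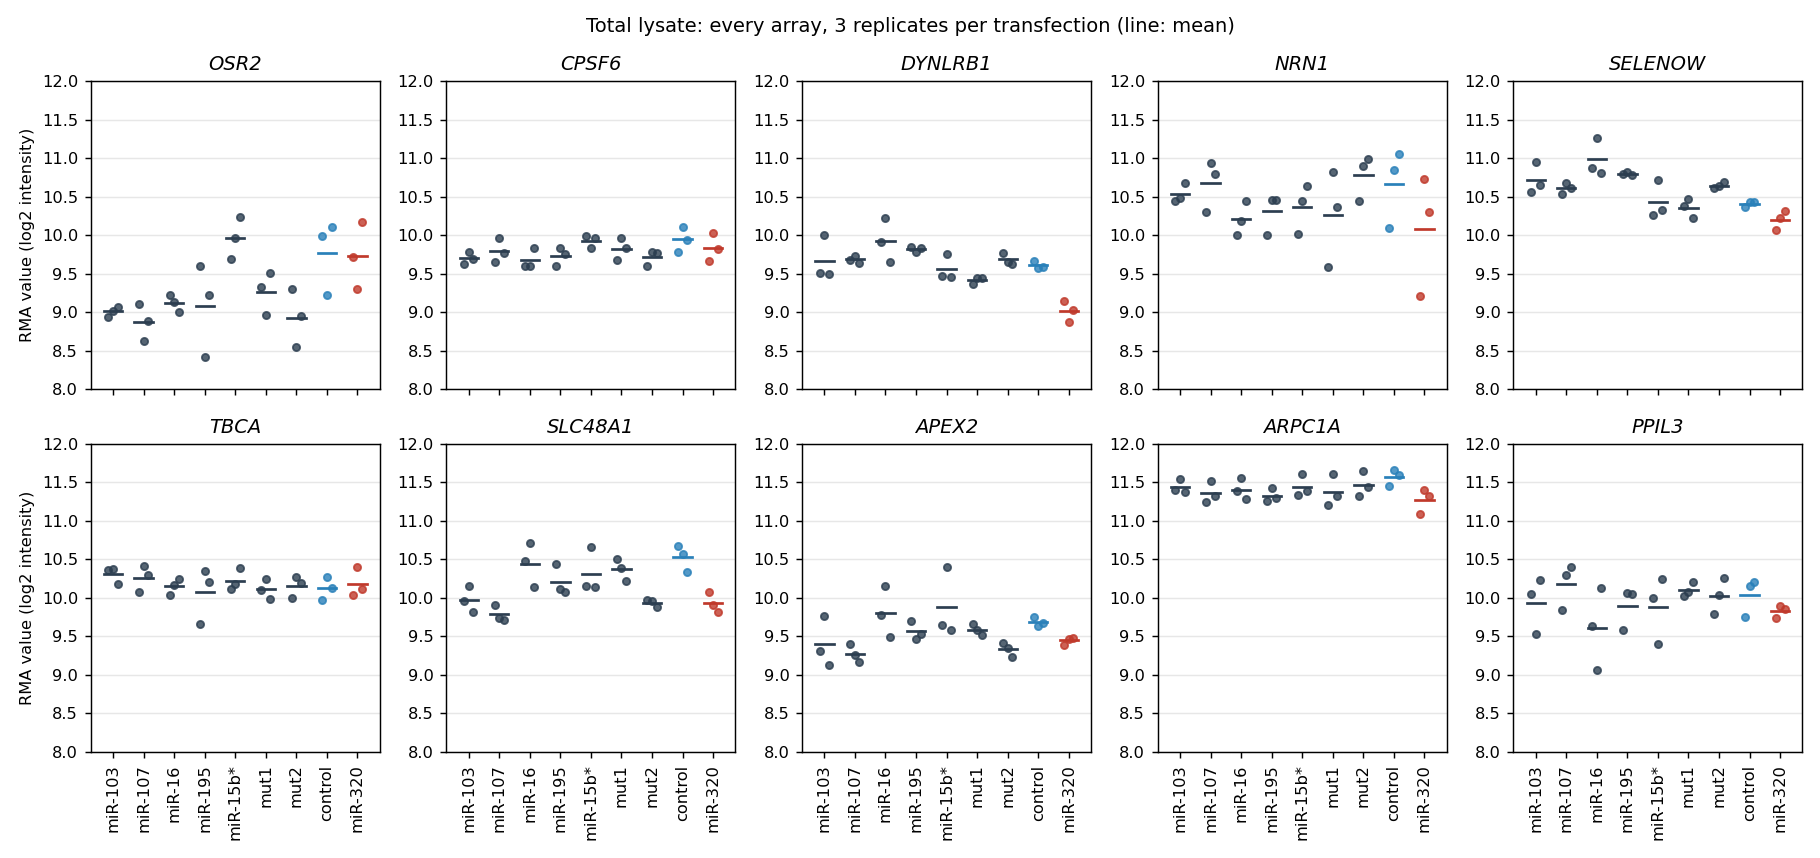
RMA value (log2 intensity) of each gene in every total lysate array, by transfection; each point is 1 array, lines are means of 3 replicates, and the axis from 8 to 12 does not start at 0. DYNLRB1 is the gene whose 3 miR-320 points (8.88 to 9.15) lie below all other arrays, and NRN1 spans 9.21 to 10.72 with miR-320 alone.

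**Figure D3:**
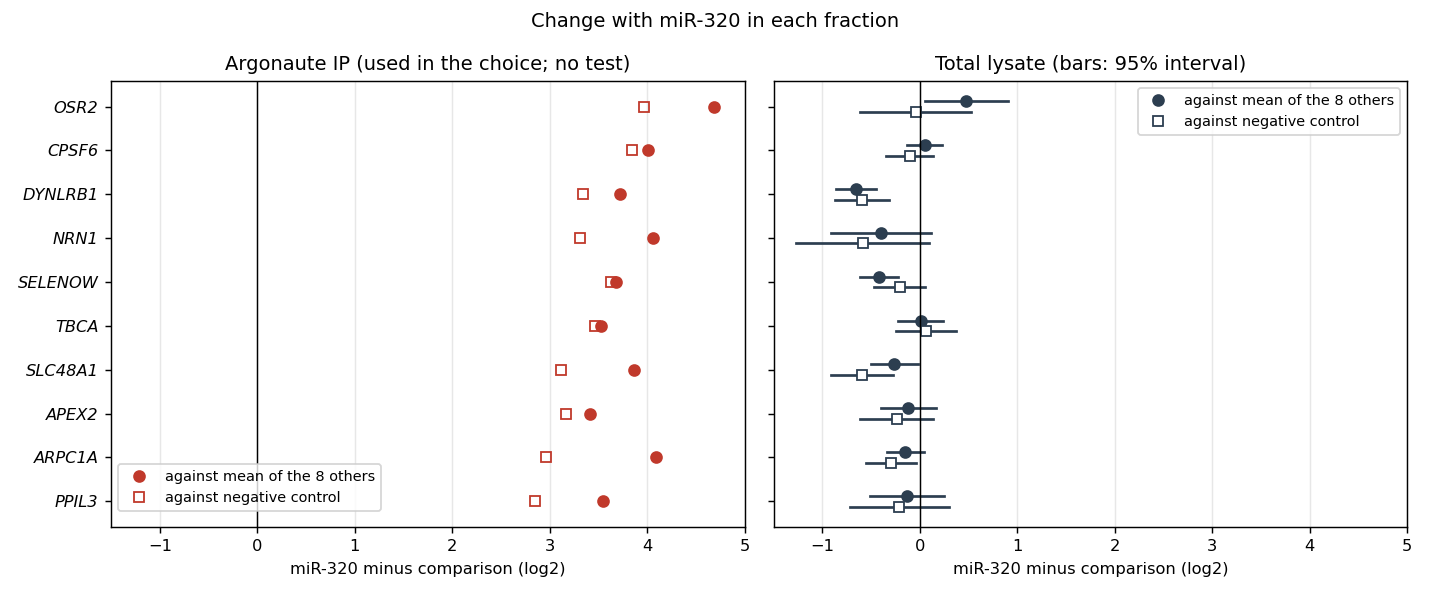
Difference of the miR-320 mean from the mean of the 8 other transfections (filled) and from the negative control (open), log2, for the IP (left, no interval because the IP values chose the genes) and the lysate (right, bars are 95% intervals of the limma fit). All IP differences lie between 2.85 and 4.69, and the lysate differences between -0.66 and 0.48.

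Across all 9 transfections, 4 of the 10 messages varied in the lysate by the moderated F test of limma: DYNLRB1 (adjusted p = 0.00057), SELENOW (0.00072), SLC48A1 (0.0027) and OSR2 (0.011). The background was 32.5% of all genes tested. miR-320 gave the lowest of the 9 lysate means for DYNLRB1, SELENOW, NRN1 and ARPC1A, and the replicates separated from every other group for DYNLRB1 only. NRN1 and ARPC1A were not called by the F test (adjusted p = 0.50 and 0.56 in limma). The share of all genes with their lowest mean at miR-320 was not counted.
Of 70 tests of the 10 messages in the other 7 transfections against the control, 7 were called, beside 13.3% of such tests over all genes. They were on SLC48A1, OSR2 and SELENOW. Over all genes the share called was 17.2% with miR-103, 14.9% with miR-107, 17% with miR-16 and 14% with miR-195. It was 7.54% with miR-15b*, 8.77% with miR-107-mut1 and 13.8% with miR-107-mut2.

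SLC48A1 fell with miR-107 (by 0.74, to 9.78 ± 0.10 from 10.53 ± 0.17, n = 3; adjusted p = 0.0013), with miR-107-mut2 (by 0.59; adjusted p = 0.010) and with miR-103 (by 0.55; adjusted p = 0.014). Its level with miR-320, 9.93 ± 0.13 (n = 3), sat beside those of miR-107-mut2 (9.94 ± 0.05) and miR-103 (9.97 ± 0.17; n = 3 each), and miR-107 was lowest. The miR-103 call was lost without miR-103 replicate 3 (adjusted p = 0.068) or control replicate 1 (0.065) or 2 (0.058), and the miR-107-mut2 call without control replicate 1 (0.057).

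OSR2 fell with miR-107 by 0.90 (adjusted p = 0.026) and with miR-107-mut2 by 0.84 (adjusted p = 0.042), the latter with replicates that overlapped the control. In order of mean, its lysate level was highest with miR-15b* (9.96 ± 0.28), then the control (9.77 ± 0.48) and miR-320 (9.73 ± 0.43), which lay within each other's spread, and lowest with miR-107 (8.87 ± 0.24; n = 3 each). The miR-107 call was lost without miR-107 replicate 2 (adjusted p = 0.13) or 3 (0.069) or control replicate 1 (0.11) or 3 (0.14). The miR-107-mut2 call was lost without its replicate 2 (0.22) or 3 (0.088), miR-107 replicate 3 (0.051) or control replicate 1 (0.14) or 3 (0.18), and after cyclic loess (0.050).

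SELENOW rose with miR-16 by 0.57 (to 10.98 ± 0.25 from 10.41 ± 0.04, n = 3; adjusted p = 0.0025) and with miR-195 by 0.39 (adjusted p = 0.043), whose sequences share a seed. The miR-195 call was lost in 14 of the 27 fits that left out 1 array each, among them those without any miR-195 or control replicate, with adjusted p of up to 0.13. The miR-16 call was lost when the fit held only the arrays compared (adjusted p = 0.090).

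Partners and relatives of the 10 genes were examined as lists: 130 genes, of which 104 were tested. In the IP against the mean of the 8, 8 of the 104 rose (7.69%, beside 7.29% of all genes tested) and none fell (0.353% of all genes; 2 of the 104 were lower at an unadjusted p under 0.05). Against the control 3 rose (2.88%, beside 2.12%). The list medians were 0.13 and -0.01 on the log2 scale, beside 0.08 and -0.00 over all genes. Without the IP array that stood apart, 10 of the 104 were called in either direction against the mean of the 8 (9.62%, beside 9.36% of all genes). HMOX1 then rose (0.63; adjusted p = 0.043 in limma) and TBCC, listed with TBCA, fell (by 0.52; 0.019). Against the control 4 were called in that setting (3.85%, beside 2.99%). These shares are close to the background and say nothing particular about the lists.
None of 6 Arp2/3 subunits beside ARPC1A and none of 8 dynein subunits beside DYNLRB1 was called in the IP by limma, and 0 had an unadjusted p under 0.05. The other 16 cleavage and polyadenylation factors tested gave 1 call, and the 16 tubulin folding genes 1.

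The calls included paralogs and relatives. CPSF7, the CPSF6 paralog in cleavage factor Im, measured 6.99, 7.10 and 7.05 in the miR-320 IP against 4.10 to 6.28 (median 5.37) elsewhere. It rose by 1.79 ± 0.23 from the mean of the 8 (3.47-fold; adjusted p = 6.7e-06 in limma) and by 1.31 from the control (adjusted p = 0.018). The second call was lost without miR-320 replicate 2 (0.072) or 3 (0.075) or control replicate 1 (0.084) or 2 (0.11). In the lysate CPSF7 differed by 0.17 (adjusted p = 0.32), and by 0.22 without the arrays that stood apart (adjusted p = 0.011).

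PPIL1, a spliceosomal cyclophilin like PPIL3, measured 7.33, 9.19 and 7.73 against 4.80 to 5.91 (median 5.33). It rose 6.98-fold from the mean of the 8 (adjusted p = 2.3e-08 in limma) and 6.14-fold from the control (adjusted p = 1.9e-05). In the lysate it fell by 0.32 ± 0.08 from the mean of the 8 (adjusted p = 0.012), a call lost without miR-320 replicate 2 (0.12) or 3 (0.13).
The other paralogs tested, APEX1 (0.28), ARPC1B (0.42), OSR1 (0.09) and NRN1L (-0.07), gave IP differences from the mean of the 8 that were not called. The difference between a member and its paralog was not tested.

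UROS, a heme synthesis enzyme listed with SLC48A1, changed in both fractions. In the IP it measured 10.44, 10.55 and 10.43 against 6.30 to 8.63 (median 7.87), a rise of 2.80 ± 0.28 or 6.97-fold (adjusted p = 2.2e-07 in limma), and 4.33-fold over the control (adjusted p = 0.0013). In the lysate it measured 10.64, 10.12 and 10.44 against 11.09 to 11.93 (median 11.65), a fall of 1.24 ± 0.08 or 2.36 times (adjusted p = 4.5e-09). The lysate groups did not overlap, and this fall was larger in size than those of the 10 genes, a difference that was not tested. Without the IP array that stood apart the rises of CPSF7, PPIL1 and UROS from the mean of the 8 were 1.73, 2.78 and 2.75.
Smaller IP rises from the mean of the 8 were called for SELENOF, an endoplasmic reticulum selenoprotein (1.40; adjusted p = 0.0020), FTL, the ferritin light chain (1.19; 1.7e-06), PFDN1, a prefoldin subunit (1.03; 0.035), TXNRD1, a thioredoxin reductase (0.92; 0.0024), and SMUG1, a uracil glycosylase of base excision repair (0.88; 0.0045). None of these 5 was called against the control in the fit reported here. SELENOF was called with cyclic loess, with array quality weights and with only the arrays compared (adjusted p = 0.046, 0.038 and 0.032), and without miR-195 replicate 2 (0.028). FTL was called against the control without the IP array that stood apart (0.63; adjusted p = 0.038). Without the IP array that stood apart all 5 rises from the mean of the 8 were still called, at 0.84 (SMUG1) to 1.37 (SELENOF).

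In the lysate, 3 of the 104 list genes rose and 4 fell against the mean of the 8 (2.88% and 3.85%, beside 3.42% and 3.95% of all genes tested), with a median of 0.05. The rises were PPIH (0.79; adjusted p = 0.0028), FECH, the enzyme that inserts iron into heme (0.38; 0.0024), and ALAD (0.32; 0.026), and the falls besides UROS and PPIL1 were SELENON (by 0.29; 0.015) and PPIA (by 0.26; 0.012). Against the control 2 rose, PPIF (0.99; adjusted p = 0.00045) and FECH (0.78; 7.4e-05), and 3 fell, UROS (by 1.18; 1.8e-06), PPIL1 (by 0.41; 0.026) and the dynein light chain DYNLL2 (by 0.39; 0.0056). The PPIL1 call was lost without miR-320 replicate 2 (0.12) or 3 (0.14) or any control replicate (0.063 to 0.12). PPIA and ALAD are named to complete the counts, after their values were seen. DYNLL2 differed by 0.02 from the mean of the 8, where DYNLRB1 fell. Without the lysate arrays that stood apart, 24 of the 104 list genes were called in either direction against the mean of the 8 (23.1%), beside 17% of all genes tested in that setting, and the 7 genes called with all arrays were among them. Against the control 10 of the 104 were called in that setting (9.62%, beside 9.01% of all genes).

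**Figure D4:**
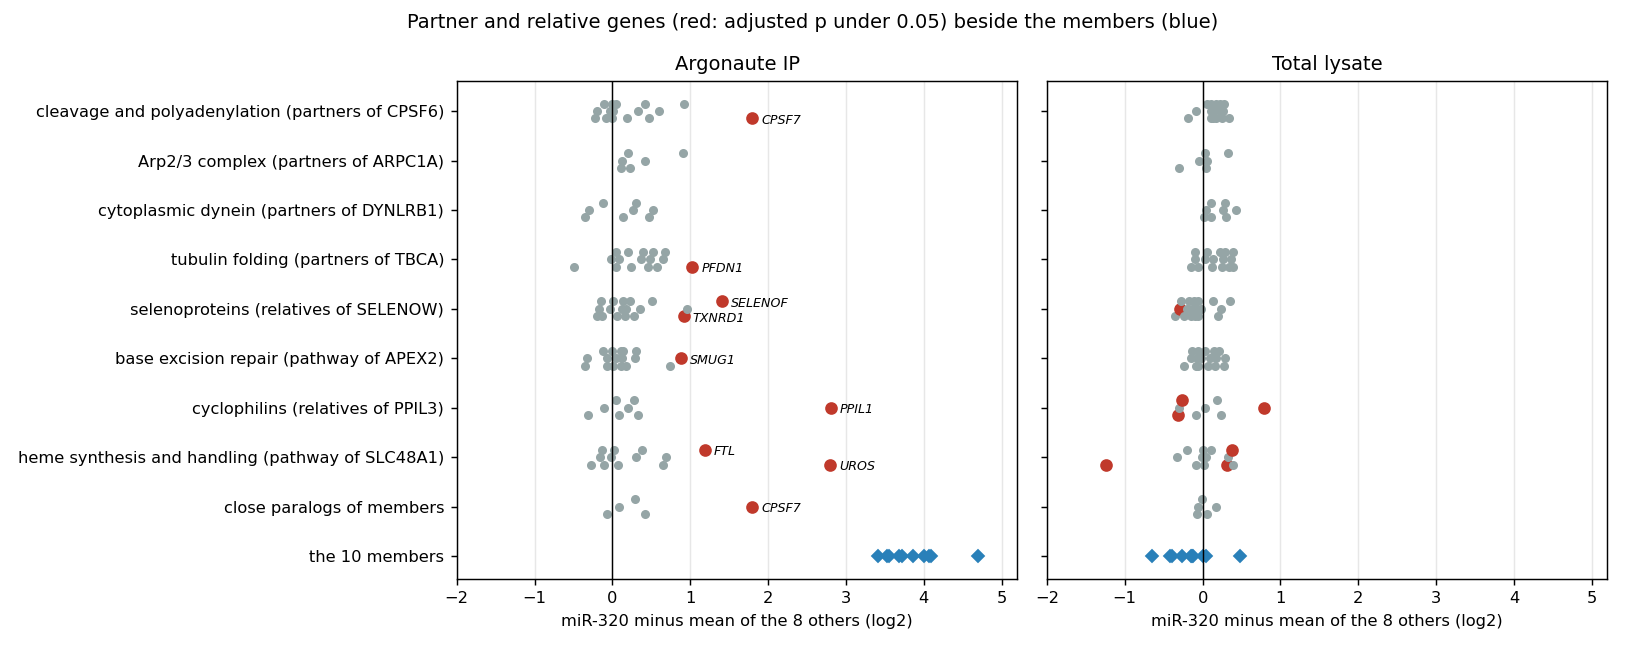
Difference of the miR-320 mean from the mean of the 8 other transfections (log2) for each partner or relative tested, by list, in the IP (left) and lysate (right); red points have an adjusted p under 0.05 in limma, grey points do not, and blue diamonds are the 10 chosen genes. PPIL1 and UROS (both 2.80) lie nearest to the chosen genes in the IP (3.42 to 4.69), and UROS is lowest in the lysate (-1.24).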

How the data were processed

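RNA from Argonaute IPs and total lysates of 27 transfected H4 cultures per fraction was hybridised to 54 arrays. Per the submitters' processing notes the authors ran RMA in Affymetrix Expression Console 1.1, and the deposited numbers, taken as log2 intensities, were used unaltered. Of 33297 probe sets, 19460 had 1 gene symbol, and the probe set with the highest mean was kept per gene (18417). Genes in the lowest 40% by mean (below 5.26) were left out, which left 11050.

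Each fraction was fitted apart in limma 3.58.1 (R 4.3.3) with 9 groups, contrasts of miR-320 with the negative control and with the mean of the 8 other group means, and Benjamini-Hochberg adjustment over 11050 genes. The fits were tested on simulated data. Figures used matplotlib 3.10.9.

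The 10 genes, the partner lists and the alternatives were chosen with earlier results of these data known. Other genes named are the 3 with the next largest IP distance, the 5 most alike over the IP arrays, close paralogs, and called list genes, at most 3 a list by size of change. Arrays standing apart had a mean correlation more than 3 median absolute deviations below the median. Array dates and background probe values were not used here, so signal over background was not analysed, and precision is limited by how many arrays there are. Alternatives were other filters, cyclic loess, the mean of all probe sets, eBayes with trend and robust settings, array quality weights, a replicate block, only the arrays compared, no arrays that stand apart, and each array left out.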

Additional observations from a re-analysis of the deposited data

How the results depend on the processing

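The 10 genes kept their 3 miR-320 IP values above all other IP arrays under cyclic loess. They also did with the mean of all probe sets, which altered TBCA alone, without the array that stood apart and without each array. Leaving out an array cannot break such an order, and the IP values chose the genes, so nothing is read from this. Counts of calls moved more. In the lysate against the control, 327 genes were called, 2367 with array quality weights, 996 without the arrays that stood apart, and 139 to 430 without 1 array, lowest without control replicate 2 (139) or 3 (178) or miR-320 replicate 1 (185), 3 (202) or 2 (217). Against the mean of the 8, 815 were called, with weights 3124, without the arrays that stood apart 1879, and 382 to 997 without 1 array, lowest without miR-320 replicate 2 (382), 3 (396) or 1 (525). In the IP the 244 calls against the control became 386 with cyclic loess and 466 with weights, and 148 to 330 without 1 array (148 without control replicate 2). The 845 calls against the mean of the 8 became 1627 with weights, and 417 to 1194 without 1 array (417 without miR-320 replicate 3).

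Of the 10 genes in the lysate, 2 were called against the control (0 to 2 without 1 array). With weights 5 were, where 21.4% of all genes were called. Against the mean of the 8, 2 of the 10 were called (1 to 2 without 1 array). With weights 4 were, where 28.3% of all genes were called. The F test called 4 (10 with weights, where 97.2% of all genes were called, and 4 to 5 without 1 array). The 7 calls in other transfections became 39 with weights (49.8% over all genes), 12 without the arrays that stood apart (23% over all genes), and 2 to 9 without 1 array (2 without control replicate 1, 4 without control replicate 3 or miR-107 replicate 3). The causes were not tested. Some uncalled differences changed sign. TBCA against the mean of the 8 was -0.013 with cyclic loess and -0.0093 with weights, and -0.096 to 0.083 without 1 array. TBCA against the control ran from -0.042 to 0.14, CPSF6 against the mean of the 8 from -0.044 to 0.13, OSR2 against the control from -0.32 to 0.17 and NRN1 against the mean of the 8 from -0.72 to 0.036. CPSF7 against the control in the lysate was 0.0024 with weights and -0.097 to 0.012 without 1 array.

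Replicates with the same number share a code in the labels, but the labels do not say that it marks a day or batch. For arrays of the same number, each array's deviations from its group gave a mean correlation of 0.27 (IP) and 0.31 (lysate), with 84 and 79 of 108 pairs above 0.1. The means for other numbers, -0.13 and -0.14, are no separate evidence, because deviations from a group's mean cancel within the group. By the same-number values, arrays of a number deviated together on average, though not in every pair. Because of those pairs and the labels, the fit without the block is the one reported. With the replicate block, 671 genes were called in the lysate against the control and 1516 against the mean of the 8, and 373 and 1539 in the IP. The block called 7 of the 10 genes by the F test (45.6% of all genes) and 15 of the 70 tests in other transfections (19.9% over all genes), and it added SELENOF in the IP against the control (adjusted p = 0.048 in limma). Among the 10 genes with miR-320 it added ARPC1A against the control (-0.30, adjusted p = 0.012 in limma) and OSR2 against the mean of the 8 (0.48, adjusted p = 0.049).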
